A study of Homo sapiens with 9 samples.

Results

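The transcriptome of untreated U-373MG cells, a human glioblastoma line, was described from the 3 control libraries of the series, out of 9 libraries in all. The control libraries were chosen by their titles, and no treated library entered any value. The study asked how the line responds to a pair of synthetic peptides modelled on jellyfish toxins of the ShK type, NnK-1 and CBRV1-10493, each given at 200 nM for 48 h, with 3 libraries for each. The controls received no peptide, and the labels name no vehicle, passage or culture density for them. The labels do not say that each control came from its own culture, so the spread among the 3 libraries may be technical in part.

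U-373MG is an adherent line labelled as glioblastoma and astrocytoma from brain. Stocks under this name at several cell banks were found to be a subline of U-251 MG, and the labels do not give the origin of the stock used, which limits the line as a model of a separate tumour. Glioblastoma cells draw on programs of several normal cells. Glial fibrillary acidic protein, glutamate transporters and gap junction proteins mark mature astrocytes, whereas nestin, SOX2 and vimentin mark neural progenitors and reactive glia. Tumours are commonly sorted into a proneural state, with oligodendrocyte lineage factors such as OLIG2, and a mesenchymal state, with matrix, adhesion and injury genes such as CD44.

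The libraries held 12306458, 12593112 and 13491075 counts in replicates 1, 2 and 3. Levels (CPM) are the count of a gene symbol per 1000000 counts of its library and are given as mean ± SD over n = 3 libraries. With 1 group there was no second condition to test against, so every value below is a description. The design text names a kit that reads the 3′ ends of transcripts, and whether the catalogue number in the labels is that version was not settled. Levels were not divided by length, so they compare genes only if each read is such an end tag. Among the 10066 genes at 5 CPM or more that had a transcript length, the median level was 42.1, 33.8, 32.5, 32.1 and 37.0 CPM from the fifth with the shortest to the fifth with the longest transcripts. Ranks are ranks of CPM on this scale, and after division by transcript length 7 of the 20 highest symbols stayed among the 20 highest. Replicate 2 stood apart in interferon-stimulated genes, and replicate 1 was high in several abundant genes, both as given below.

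Of 24462 gene symbols, 13042 (53.3%) had a mean of at least 1 CPM and 12370 (50.6%) reached 1 CPM in every library. No read was counted for 7108 symbols (29.1%) in any of the 3 libraries. Such a symbol could still have had a level of up to 0.0781 CPM, the level that 3 counts over the group give, and this floor covers counting error only. The median level of the symbols at 1 CPM or more was 24.0 CPM, 2172 symbols had at least 100 CPM and 113 had at least 1000 CPM. Protein-coding symbols held 95.8% ± 0.188 of counts, and long noncoding RNAs 2.93% ± 0.155. The 10 highest symbols held 6.78% ± 0.0157 of counts, the 100 highest 22.0% ± 0.196 and the 1000 highest 55.9% ± 0.291. The most abundant 722 symbols together held 50% of all counts.

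**Figure D1:**
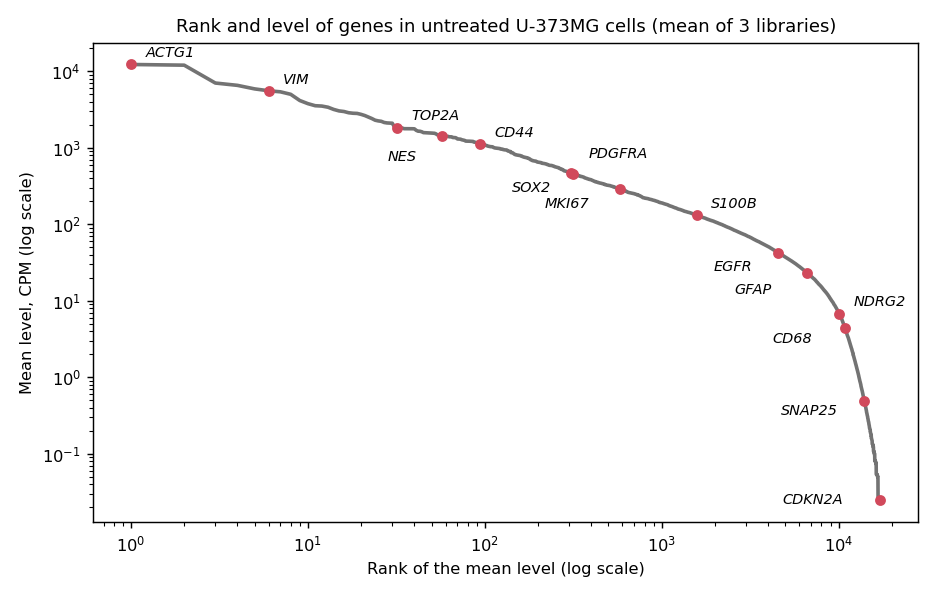
Mean level over the 3 untreated libraries in CPM (vertical, log scale) against the rank of that level (horizontal, log scale), with selected genes marked. The curve starts at 12305 CPM for ACTG1; NES lies at rank 57, SOX2 at rank 315 and GFAP at rank 6607.

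Among the most abundant transcripts were those of cytoskeletal, glycolytic and ribosomal protein genes and the nuclear RNA MALAT1. ACTG1, which encodes cytoplasmic gamma-actin, ranked highest, with 12353, 12286 and 12275 CPM in replicates 1, 2 and 3. Its 12305 ± 42.4 CPM made it the steadiest of the 20 highest symbols relative to its level. MALAT1, a long noncoding RNA retained in the nucleus, followed with 12946, 12743 and 10459 CPM, so that replicate 3 was the lowest of the libraries. S100A6, a calcium-binding protein of migrating and mesenchymal cells, had 7393, 6837 and 6888 CPM. SERF2 had 5457, 6816 and 7417 CPM, with replicate 1 the lowest. Vimentin, the intermediate filament of glial progenitors and mesenchymal cells, ranked 6th of all symbols with 6295, 5108 and 5324 CPM. ENO1, the glycolytic enzyme enolase, had 5014 ± 498 CPM, and TUBB, a beta-tubulin, had 3786 ± 335 CPM. TMSB4X, the actin-sequestering peptide thymosin beta 4, had 5478, 3452 and 3549 CPM, and replicate 1 lay well above the other libraries.

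Other symbols of the 20 highest lay between 2740 and 3557 CPM, apart from the actin cross-linker ACTN4 and the calpain CAPN12. Among them were ANXA2 (annexin A2), PRSS23 (a serine protease), MT2A (a metallothionein), PSAP (a lysosomal sphingolipid activator precursor), MAP1B (a microtubule-associated protein), TUBA1B (an alpha-tubulin), GAPDH and the ribosomal protein genes RPS20 and RPS28. In RefSeq positions ACTN4 (5902 ± 661 CPM) and CAPN12 (5402 ± 696 CPM) overlap each other. The labels do not say whether the counting used the strand, so reads of this pair cannot be told apart. The antisense symbol TAPT1-AS1 had 2252 ± 79.1 CPM while TAPT1 had 42.9 ± 2.81 CPM, so these symbols, unlike ACTN4 and CAPN12, lay far apart in level. The strand of the reads of TAPT1-AS1 is not known either.

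**Figure D2:**
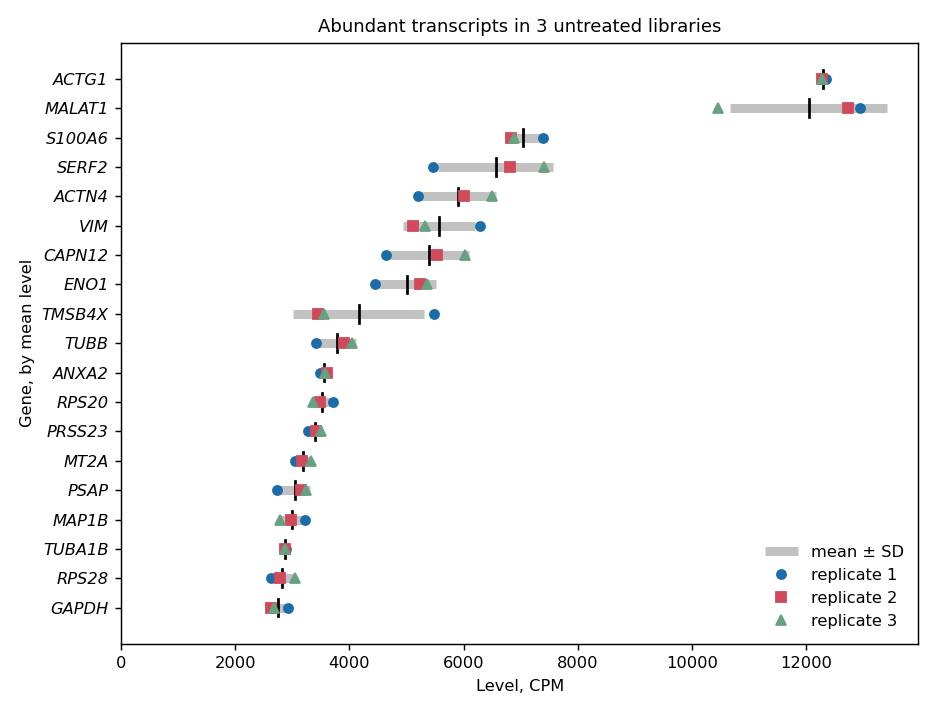
Level of symbols among the 20 highest in CPM (horizontal, linear scale from 0), 1 marker per library, with a black bar at the mean and a gray band of ± 1 SD. TMSB4X is set apart by replicate 1 (5478 CPM), and ACTG1 shows markers that nearly coincide between 12275 and 12353 CPM.

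Cytoskeletal genes were high as a group. The actin list of 34 genes held 4.04% of all counts, and 32 of its members had at least 1 CPM, against 53.3% of all symbols. CFL1 (cofilin, which severs actin filaments) had 2110 ± 192 CPM and ACTB (beta-actin) had 1848 ± 114 CPM, far below its gamma counterpart on the CPM scale. Low members of the list included TAGLN at 1.45 CPM and the smooth muscle light chain MYL9 at 0.0494 CPM. All 13 genes of the tubulin list had at least 1 CPM, and TUBA1B, TUBA1C and TUBA1A had 2878 ± 10.4, 1583 ± 28.1 and 1119 ± 35.7 CPM. These tubulins, like the actins, are near-identical in sequence, and how the authors counted reads shared between copies is not given, so the split between members is uncertain. The 77 ribosomal protein symbols held 6.62% ± 0.277 of counts, and 23 of them were among the 100 highest symbols. EEF2, the ribosome translocase, had 2147 ± 48.1 CPM and EEF1A1 had 1466 ± 28.7 CPM.

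The 7 promoters below show the reference DNA ahead of genes at the top and at the bottom of the range, so that each level can be seen beside the reference sequence of its gene. ACTG1, S100A6 and VIM are among the 20 highest symbols. HEPACAM (an astrocyte adhesion protein), MOBP (a myelin protein), PTPRC (the leukocyte antigen CD45) and CDKN2B (the cell cycle inhibitor p15) had no read. Each sequence is the 250 bases before a start site listed by RefSeq, 5′ to 3′ on the gene's own strand in GRCh38.p14, with the dinucleotide CG in capitals.
ACTG1: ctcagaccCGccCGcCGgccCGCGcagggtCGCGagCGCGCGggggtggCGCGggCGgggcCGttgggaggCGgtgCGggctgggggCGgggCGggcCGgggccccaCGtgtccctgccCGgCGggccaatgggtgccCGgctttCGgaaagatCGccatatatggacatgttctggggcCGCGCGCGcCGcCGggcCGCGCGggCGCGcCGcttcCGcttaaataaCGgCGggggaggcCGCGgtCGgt
S100A6: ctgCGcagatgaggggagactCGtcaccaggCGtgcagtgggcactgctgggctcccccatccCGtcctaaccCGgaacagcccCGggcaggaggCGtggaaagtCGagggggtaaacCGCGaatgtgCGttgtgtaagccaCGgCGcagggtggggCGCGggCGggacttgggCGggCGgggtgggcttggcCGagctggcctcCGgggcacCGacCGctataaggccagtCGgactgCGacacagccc
VIM: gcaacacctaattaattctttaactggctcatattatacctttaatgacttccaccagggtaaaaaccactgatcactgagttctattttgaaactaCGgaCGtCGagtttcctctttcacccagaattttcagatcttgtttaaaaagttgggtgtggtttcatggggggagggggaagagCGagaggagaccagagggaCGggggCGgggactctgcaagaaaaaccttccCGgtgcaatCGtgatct
HEPACAM: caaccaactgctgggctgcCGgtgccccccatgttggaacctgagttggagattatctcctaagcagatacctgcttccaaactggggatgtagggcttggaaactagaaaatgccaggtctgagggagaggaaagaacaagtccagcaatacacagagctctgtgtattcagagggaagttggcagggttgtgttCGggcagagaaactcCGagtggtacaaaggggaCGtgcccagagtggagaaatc
MOBP: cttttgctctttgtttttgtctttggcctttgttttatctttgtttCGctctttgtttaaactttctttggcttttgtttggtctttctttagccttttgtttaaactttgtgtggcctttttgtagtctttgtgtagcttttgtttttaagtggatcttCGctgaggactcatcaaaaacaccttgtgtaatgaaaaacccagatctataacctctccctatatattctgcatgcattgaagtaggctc
PTPRC: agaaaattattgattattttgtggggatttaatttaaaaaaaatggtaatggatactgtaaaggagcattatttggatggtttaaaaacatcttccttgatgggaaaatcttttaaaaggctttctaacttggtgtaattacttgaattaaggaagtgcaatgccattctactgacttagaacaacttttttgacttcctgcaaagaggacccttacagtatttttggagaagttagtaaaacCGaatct
CDKN2B: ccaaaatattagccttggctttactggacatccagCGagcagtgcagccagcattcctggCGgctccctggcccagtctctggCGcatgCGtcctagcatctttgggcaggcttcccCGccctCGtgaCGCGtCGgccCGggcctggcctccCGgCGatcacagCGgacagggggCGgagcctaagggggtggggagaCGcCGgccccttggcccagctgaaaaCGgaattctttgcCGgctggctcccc

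ACTG1 lies at chr17:81512800-81513049 on the minus strand, and its window held 43 CG dinucleotides. S100A6 lies at chr1:153535992-153536241, minus strand, with 24 of them, and VIM at chr10:17227991-17228240, plus strand, with 8. The windows of HEPACAM (chr11:124936048-124936297, minus strand), MOBP (chr3:39467430-39467679, plus strand) and PTPRC (chr1:198638790-198639039, plus strand) held 4, 2 and 1. CDKN2B (chr9:22009306-22009555, minus strand) had 18 although it had no read, so these 7 windows do not order by level. The windows are reference sequence, and whether the cells carry each of them was not measured. The letters GGGCGG, searched on both strands, stood in the windows of ACTG1, S100A6, VIM and CDKN2B. They stood in 42.6% of all 35116 promoters listed for human genes, where a gene can have several. With 1 promoter for each of 14322 protein-coding symbols, the share was 57.0%. The letters CCAAT, also searched on both strands, stood in the ACTG1 window, in 32.0% of listed promoters and in 34.5% at 1 per symbol. TATAAA was in none of the 7 windows, in 10.7% of listed promoters and in 8.94% at 1 per symbol. A comparison of promoter composition with level over all genes was not used, because 14322 of 19001 protein-coding symbols (75.4%) had a listed promoter, too few for a check over the whole set, which is void.

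Mature astrocyte markers ranged from 617 CPM to no read. Of 25 such markers, 15 (60%) had at least 1 CPM, near the 53.3% of all symbols. In any library 3 had no read, against 29.1% of all symbols. GFAP, the intermediate filament that defines astrocytes, had 20.5, 28.98 and 20.8 CPM, a mean of 23.4 ± 4.81 CPM at rank 6607, near the median of the symbols at 1 CPM or more. S100B, a glial calcium-binding protein, was higher with 137, 129 and 129 CPM. SOX9, the transcription factor that specifies glia, had 637, 609 and 606 CPM. The top of the list also held ID3, an inhibitor of differentiation factors (592 ± 19.98 CPM), GLUL, the enzyme that makes glutamine from glutamate (118 ± 5.07 CPM), SLC1A3, a glial glutamate transporter (98.0 ± 9.21 CPM), and GJA1, the gap junction protein connexin 43 (88.5 ± 1.52 CPM). NDRG2 had 6.82 CPM and ALDOC, an aldolase of astrocytes, 1.24 CPM.

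Several other markers of mature astrocytes were near or at 0. AQP4, the water channel of astrocyte endfeet, had 1 read in all 3 libraries, in replicate 2. SLC1A2, the main glutamate transporter of the adult forebrain, had 4 reads, all in replicate 2. No read was counted for ALDH1L1 (a folate enzyme), GJB6 (connexin 30) or HEPACAM. The list summed to 1909, 1933 and 1853 CPM, most of it from SOX9 and ID3. Of its members, 13 were highest in replicate 2, where 32.5% of all genes with a read were highest, and 5 and 4 were highest in replicates 1 and 3 (37% and 30.5% of all genes). In bulk RNA, fewer cells of a type and less RNA per cell cannot be told apart, which holds for GFAP and for each marker below.

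Progenitor markers stood higher than astrocyte markers. Of 24 neural progenitor genes, 18 (75%) had at least 1 CPM, against 53.3% of all symbols. The median of the list was 25.4 CPM, against 1.35 CPM for the mature astrocyte list. NES, which encodes the filament nestin, had 1424, 1451 and 1426 CPM, an SD of 15.2 around 1434 CPM. SOX2, a stem cell transcription factor, had 485, 442 and 460 CPM, and SOX4 had 677 ± 17.2 CPM. HES1, a Notch target, and POU3F2, a neural factor, had 207 ± 7.73 and 185 ± 6.29 CPM. FABP7, the fatty acid binder of radial glia, had 124, 64.5 and 60.04 CPM and was the most uneven of the named progenitor genes, with replicate 1 the highest. PROM1, which encodes the stem cell antigen CD133, had 0.212 CPM. POU3F3 and SOX1, neural factors, had no read.

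Mesenchymal genes were abundant. Of 39 genes of the mesenchymal glioblastoma list, 37 (94.9%) had at least 1 CPM, against 53.3% of all symbols. At least 100 CPM was reached by 23 and at least 1000 CPM by 7, as by 2172 and 113 of all 24462 symbols. The median was 180 CPM, against 24.0 CPM over all symbols at 1 CPM or more. The list held 2.80% of counts, with sums of 29229, 27288 and 27594 CPM. CD44, the hyaluronan receptor that defines this state, had 1093, 1151 and 1145 CPM. ANXA2 (3557 ± 64.5 CPM) and SPARC, a matrix glycoprotein (2118 ± 27.4 CPM), were also even across the libraries. LGALS1, the carbohydrate-binding galectin 1, had 1298 ± 111 CPM, TGFBI had 1042 ± 50.8 CPM and CTGF, a matricellular protein driven by YAP and TGF-beta signals, had 990 ± 60.1 CPM. PLAU, the plasminogen activator urokinase, had 315 CPM. CHI3L1, a secreted protein often used to mark mesenchymal tumours, was an exception with 4 reads, all in replicate 3. IL6 and ICAM1, inflammatory members, had 2.72 and 0.763 CPM.

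Genes of mesenchyme and of epithelial-mesenchymal transition gave a mixed picture. Of 32 such genes, 28 (87.5%) had at least 1 CPM, against 53.3% of all symbols. COL6A1, a collagen VI chain, had 1018, 1296 and 1364 CPM, and COL1A2 had 756 ± 6.98 CPM. COL1A1, its partner chain in type I collagen, had 40.8 CPM. The integrin ITGB1 (424 ± 23.4 CPM), COL5A1 (423 ± 46.0 CPM), the laminin chain LAMC1 (190 ± 8.97 CPM) and N-cadherin, CDH2 (166 ± 11.5 CPM), followed. Among the transcription factors, ZEB1 had 116 CPM, SNAI2 39.2 CPM, TWIST1 23.4 CPM and SNAI1 1.51 CPM. The lowest members were COL3A1 at 0.532 CPM, LUM at 0.135 CPM, DCN at 0.101 CPM and TWIST2 at 0.0542 CPM.

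The proneural list had a median of 0.0915 CPM. Of its 20 genes, 6 (30%) had at least 1 CPM, against 53.3% of all symbols, and 7 had no read, a state shared by 29.1% of all symbols. PDGFRA, the growth factor receptor typical of that state, had 470, 507 and 440 CPM and ranked 307. NCAM1, a neural adhesion molecule, had 137 ± 2.17 CPM, and TCF4 had 106 ± 9.11 CPM. OLIG2 and OLIG1, the oligodendrocyte lineage factors that define the state, had no read in any library. SOX10, SOX8, STMN4 and KLRC3 also had no read, and BCAN, a brain proteoglycan, had 0.617 CPM.

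**Figure D3:**
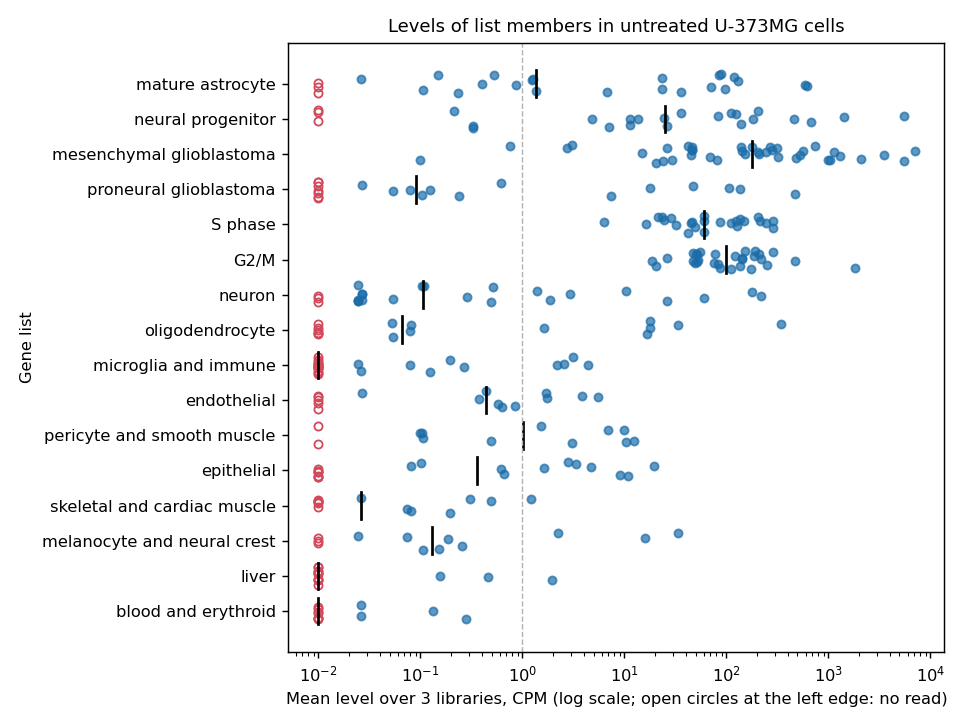
Mean level of each list member over the 3 untreated libraries in CPM (log scale), 1 row per list; black bars mark the list median, open circles at the left edge mark members without a read and the dashed line marks 1 CPM. Medians reach 180 CPM for mesenchymal glioblastoma, 99.1 CPM for G2/M and 60.02 CPM for S phase, and lie at 0 for the microglia and immune, liver and blood lists.

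Proliferation genes were expressed throughout. All 25 genes of the S phase list and all 30 of the G2/M list had at least 5 CPM, against 43.6% of all symbols. TOP2A, the topoisomerase that untangles chromosomes before division, had 1785, 1833 and 1907 CPM and ranked 32. MKI67, the standard proliferation marker, had 294, 291 and 273 CPM. The kinetochore gene CENPF had 473 ± 25.9 CPM and the survivin gene BIRC5 252 ± 3.46 CPM, and PRC1 and NUSAP1, which bundle spindle microtubules, had 219 ± 10.8 and 211 ± 9.35 CPM. In the S phase list RRM1 and RRM2, the subunits of ribonucleotide reductase, had 291 ± 16.5 and 214 ± 10.2 CPM. TYMS, which makes thymidylate, had 289 ± 32.4 CPM, and the helicase subunits MCM7, MCM4 and MCM3 had 244 ± 21.1, 205 ± 11.6 and 150 ± 5.71 CPM. Sums of the G2/M list were 5421, 5432 and 5467 CPM, and those of the S phase list 2614, 2431 and 2451 CPM. Among replicative histones, whose messages mostly lack a poly(A) tail, HIST1H4C had 1147 ± 75.0 CPM. Of the 18 members, 11 (61.1%) reached a mean of 1 CPM, near the 53.3% of all symbols.

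Inhibitors of the cell cycle were uneven. CDKN2A, which encodes p16 and ARF, had 0, 0 and 1 reads, and its neighbour CDKN2B had none. In RefSeq order these lie between MTAP, which had 856, 919 and 810 reads (67.5 ± 6.70 CPM), and DMRTA1, which had 35, 19 and 47 reads (2.61 ± 1.01 CPM). The antisense RNAs CDKN2A-AS1 and CDKN2B-AS1 of the same region had no read. CDKN2C, which encodes p18, had no read either, and its neighbour FAF1 had 2, 0 and 0 reads. On its other side C1orf185 had no read, RNF11 had 970, 978 and 1136 reads (80.2 ± 3.49 CPM), TTC39A had 23, 13 and 0 reads and EPS15 had 27.1 ± 2.86 CPM. The neighbours were chosen after the values were seen, and counts of RNA do not measure gene copy number. CDKN2D, the remaining INK4 gene, had 83.5 ± 1.91 CPM. Of the other inhibitors, CDKN1B (p27) had 34.4 ± 5.93 CPM and CDKN1A (p21) 30.6 ± 4.01 CPM. RB1 had 81.4 ± 7.84 CPM, and the antiproliferative gene BTG1 led the exit list with 127 ± 5.91 CPM.

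Of 29 genes often altered in glioma, 23 (79.3%) had at least 1 CPM, against 53.3% of all symbols. PDGFRA led this list too, followed by the chromatin remodeller ATRX with 489, 507 and 418 CPM. The receptor kinases AXL and MET had 288 ± 14.3 and 180 ± 8.11 CPM. EGFR, the receptor most often amplified in glioblastoma, had 39.9, 44.6 and 43.6 CPM. CDK6, CCND1 and CDK4, which drive entry into S phase, had 213 ± 14.3, 174 ± 8.27 and 163 ± 4.18 CPM. MGMT, the repair enzyme that removes alkylation damage, had 0.106 CPM. TERT and MYCN had 0.0247 CPM each, the level of a single read, and CCND2 had 0.0741 CPM.

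Genes of the blood, immune, vessel, muscle and liver lists were mostly at or near 0. In the microglia and immune list 15 of 25 genes had no read, against 29.1% of all symbols. None reached 5 CPM, and the sums were 12.03, 11.8 and 15.1 CPM. PTPRC, AIF1, CX3CR1 and TYROBP, which mark leukocytes and microglia, had no read, and neither had the T and B cell genes CD3E, CD3D, CD4, CD8A, MS4A1 and CD79A. CD68, a lysosomal protein of macrophages, was the highest of that list at 4.38 ± 0.590 CPM. Endothelial genes summed to 13.3, 17.7 and 16.5 CPM, and CLDN5, TEK, EMCN, ERG and PLVAP had no read. The blood list had no member at 1 CPM, a level that 53.3% of all symbols reached. No read was counted for 10 of 13 liver genes and 6 of 13 muscle genes, against 29.1% of all symbols. MYOG, MYF5 and ACTA1 of muscle and APOB, TTR and FGB of liver were among them. Of 10 pluripotency genes DNMT3B had 6.27 ± 0.601 CPM, POU5F1 had 0.874 CPM and LIN28B, DPPA4, TDGF1 and DPPA2 had no read.

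Some members of other lineage lists were present. Epithelial genes summed to 53.6, 49.8 and 57.5 CPM, with the splicing factor ESRP2 at 19.7 ± 1.46 CPM, the tight junction gene CLDN7 at 10.9 ± 1.51 CPM and the keratin KRT18 at 9.06 ± 0.458 CPM. EPCAM and CDH1, the adhesion molecules that define epithelium, had no read, nor had KRT5, CLDN3, ESRP1 and GRHL2. MITF, the melanocyte factor, had 33.9 ± 7.58 CPM, and TFAP2A of the neural crest 16.0 ± 1.88 CPM, while TYR and SOX10 had no read. In the pericyte list, MCAM, PDGFRB and ACTA2 had 12.5 ± 3.20, 10.4 ± 2.12 and 9.91 ± 2.97 CPM, and DES and KCNJ8 had no read.

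Neuronal and oligodendrocyte lists rested on few genes. Of 24 neuronal genes, 8 (33.3%) had at least 1 CPM, against 53.3% of all symbols, and 3 had no read, against 29.1%. TUBB3, a beta-tubulin that dividing tumour cells also express, had 221 ± 14.5 CPM, and MAP2, which stabilises microtubules, had 180 ± 15.3 CPM. NEFL, a neurofilament, had 60.7 ± 6.28 CPM, NRGN, a calmodulin binder of synapses, had 26.1 ± 2.95 CPM and SYT1, a vesicle calcium sensor, had 10.5 ± 2.44 CPM. The synaptic gene SNAP25 had 0.495 CPM, STMN2 had 1 read, and SLC17A6, GRIN1 and GRIA2, a glutamate transporter and glutamate receptor subunits, had none. In the oligodendrocyte list CNP had 345, 340 and 346 CPM, and MBP had 33.9 ± 0.315 CPM. UGT8 and MYRF had 18.0 ± 3.21 and 16.8 ± 2.40 CPM. OLIG1, OLIG2, SOX10, MOBP, OPALIN and ERMN had no read. KCNA3, which encodes a potassium channel that the toxin ShK blocks, had no read in the control libraries.

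HOX genes, which set position along the body axis and are mostly silent in the adult forebrain, were detected at low to moderate levels. Of 39 HOX genes, 29 (74.4%) had at least 1 CPM, against 53.3% of all symbols, none reached 100 CPM, and the list summed to 396, 399 and 417 CPM. HOXB3 was the highest with 62.1, 80.0 and 76.1 CPM. HOXC6, HOXD11, HOXD8, HOXC10 and HOXB7 followed with 38.9 ± 1.94, 38.5 ± 6.06, 34.3 ± 0.350, 31.8 ± 6.59 and 31.5 ± 9.02 CPM. HOXA10, HOXB1, HOXC11, HOXC12, HOXD12 and HOXD13 had no read, and HOXA9 had 0.181 CPM. The RNA HOTAIRM1 of the HOXA cluster had 104 ± 6.79 CPM, while HOTAIR of the HOXC cluster had 0.0800 CPM.

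All 22 genes of the glycolysis list had at least 1 CPM, against 53.3% of all symbols. Their median was 299 CPM, and they held 1.53% of counts. ENO1, GAPDH (2740 ± 162 CPM), the pyruvate kinase PKM (1780 ± 216 CPM), PGK1 (1069 ± 76.6 CPM), TPI1 (750 ± 48.6 CPM) and GPI (583 ± 15.7 CPM) were the highest. LDHB, a lactate dehydrogenase subunit, had 454 ± 44.9 CPM, whereas LDHA had 17.4, 27.5 and 39.0 CPM. Near-identical copies of LDHA exist in the genome and the handling of shared reads is not given, so its level is uncertain. The same holds for the ribosomal protein genes RPS26 (18.8 ± 3.69 CPM) and RPL21 (31.8 ± 3.09 CPM). In the hypoxia list, NDRG1, P4HA1 and BNIP3 had 617 ± 14.1, 517 ± 24.99 and 438 ± 12.3 CPM, and CA9, a carbonic anhydrase, had 24.6, 11.1 and 10.01 CPM. All 23 members of the cholesterol synthesis list had at least 1 CPM, among them the sterol sensor INSIG1 with 139 ± 6.11 CPM.

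Stress and early response genes spanned a wide range. HSPA5 and HSP90B1, chaperones of the endoplasmic reticulum, had 1572 ± 72.5 and 962 ± 44.8 CPM, and NQO1, an antioxidant enzyme, had 281 ± 5.96 CPM. JUN, a subunit of the factor AP-1, had 614 ± 38.6 CPM, while FOS, its partner, had 1.95, 0.635 and 0.593 CPM and KLF4 had no read. IER2, JUND and KLF6 had 174 ± 10.5, 111 ± 6.12 and 65.4 ± 3.64 CPM. The secreted factor PTN, a growth factor of the developing brain, had 668, 701 and 687 CPM. TGFB2, VEGFA and IL11, a transforming, an angiogenic and an IL-6 family factor, had 153 ± 4.79, 143 ± 1.79 and 140 ± 6.88 CPM, and CSF1, which sustains macrophages, had 86.7 ± 3.42 CPM. CCL20, IL1A and HGF had no read. Beside MALAT1, the long noncoding RNAs NEAT1, SNHG16 and SNHG6 had 673 ± 132, 541 ± 21.6 and 480 ± 10.9 CPM.

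The 3 libraries were close to each other. Pearson's r of log2(CPM + 0.5) over 13042 symbols was 0.981 for each pair, across genes that share libraries and are not independent replicates. Their counts differed by more than sampling noise, with a chi-square per degree of freedom of 11.1, 13.3 and 7.38 for the pairs 1 and 2, 1 and 3, and 2 and 3, so none was counted as a second deposit of another. This does not show that they came from separate cultures. The common biological coefficient of variation, edgeR's estimate of the spread beyond counting, was 0.144 over 12629 genes. Over 10658 genes at 5 CPM or more, the median SD divided by the mean was 0.105, against 0.0478 from counting alone. At 1000 CPM or more it was 0.0500 against 0.00738, so abundant genes varied by more than counting gives. Between 1 and 5 CPM it was 0.338 against 0.182. The smallest values belonged to CCDC167, GLIS3, IFRD2, TNRC6C, PPP2R2B, TXNDC5, CDC37 and DVL2, all below their counting error; the kinase co-chaperone CDC37, for example, had 277, 278 and 277 CPM.

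**Figure D4:**
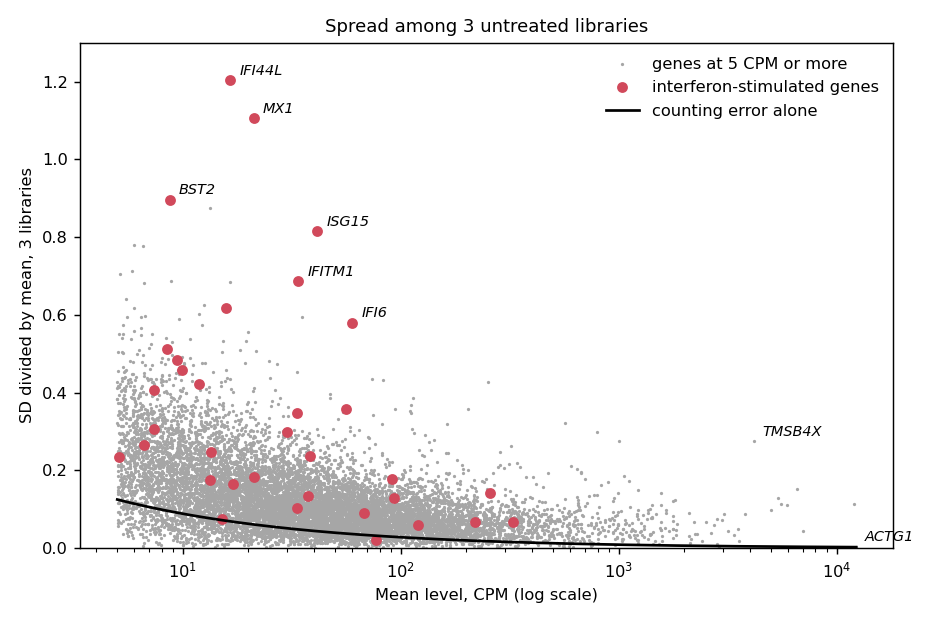
SD divided by the mean over the 3 untreated libraries (vertical) against mean level in CPM (horizontal, log scale) for the 10658 genes at 5 CPM or more; the black line is the value from counting alone and red points are interferon-stimulated genes. IFI44L (1.204), MX1 (1.11), BST2 (0.896), LOC728554 (0.874, not an interferon gene) and ISG15 (0.815) lie at the top of the plot.

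Interferon-stimulated genes, the antiviral genes that cells switch on downstream of interferon receptors and RNA sensors, held 4 of the 5 largest values of SD over mean. IFI44L had 3.90, 39.5 and 6.23 CPM in replicates 1, 2 and 3, and MX1, a GTPase that blocks viruses, had 6.66, 48.1 and 8.67 CPM. BST2, the protein that tethers budding virus, had 3.49, 17.7 and 4.97 CPM. ISG15, a ubiquitin-like modifier, had 19.4, 80.1 and 24.5 CPM, and IFITM1, a membrane protein that restricts viral entry, had 19.3, 60.8 and 21.6 CPM. In all of these replicate 2 was the high library, and the others lay well below it. Of the 44 genes of the interferon list, 41 were highest in replicate 2, where 32.5% of all 17354 genes with a read were highest. None was highest in replicate 1 and 3 were in replicate 3, against 37% and 30.5% of all genes. The list summed to 1602, 2250 and 1670 CPM, a mean of 1840 ± 356 CPM and 1636 CPM without replicate 2. IFI6, IFIT3 and HERC5 took part, with 99.7, 46.5 and 40.4 CPM in replicate 2.

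Members with few reads were also high in replicate 2. OAS1, a sensor of double-stranded RNA, had 0, 73 and 6 reads, MX2 had 10, 128 and 14 reads, and RSAD2, the antiviral enzyme viperin, had 0, 23 and 0 reads. The most abundant members were more even. IFITM3, a restriction factor that many cells express constantly, had 326 ± 21.9 CPM, and PARP14 had 219 ± 14.8 CPM. The interferon genes IFNB1, IFNA1 and IFNL1 had no read in any library. What set replicate 2 apart was not tested. The microglia and immune list summed to 12.03, 11.8 and 15.1 CPM in replicates 1, 2 and 3, with no member at 5 CPM and no read of PTPRC. In total counts replicate 2 lay between the other libraries.

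**Figure D5:**
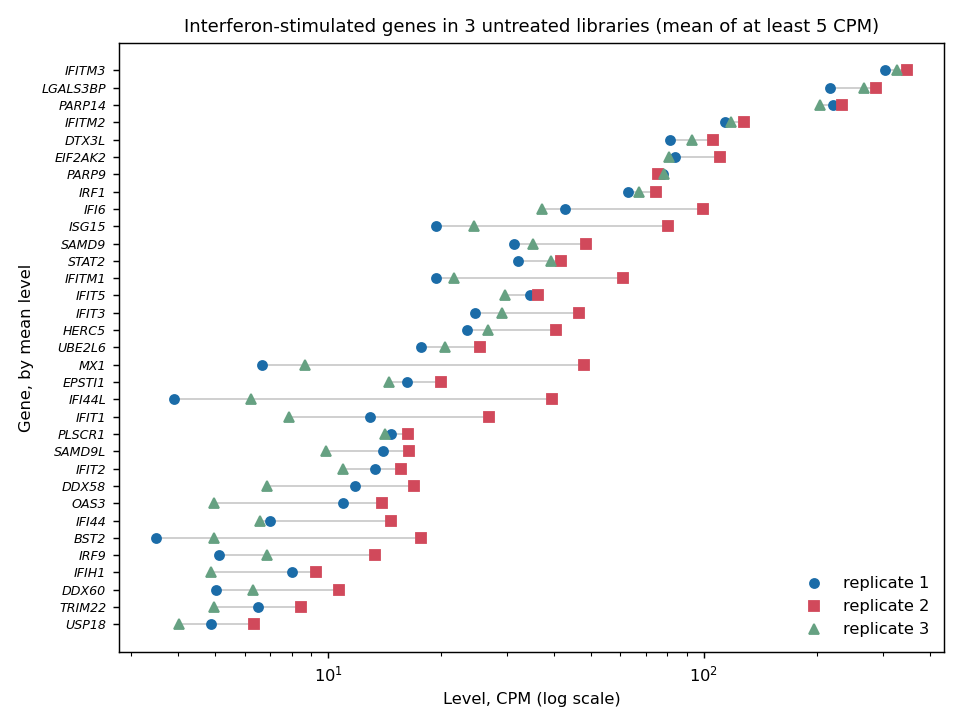
Level in each untreated library (CPM, log scale) of interferon-stimulated genes among those that averaged 5 CPM or more, 1 row per gene and 1 marker per library. Replicate 2 is the rightmost marker in nearly every row, for example at 48.1 CPM for MX1 against 6.66 and 8.67 CPM.

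Other genes were uneven for other libraries. At 5 CPM or more, 323 genes (3.03%) were at least 1.5 times the mean of the other libraries in replicate 1, 227 (2.13%) in replicate 2 and 150 (1.41%) in replicate 3. At most the mean of the others divided by 1.5 were 250 genes (2.35%) in replicate 1, 264 (2.48%) in replicate 2 and 405 (3.8%) in replicate 3. Replicate 1 was high in LOC728554 (26.3, 9.69 and 3.93 CPM), in the kinase PAK4 (11.4, 3.26 and 3.34 CPM), in the lysosomal protease CTSZ (12.4, 3.73 and 3.48 CPM) and in ATN1 and the chaperone HSPB8. SMN1, the motor neuron survival gene, had 29.4, 11.99 and 8.23 CPM, and its near-identical copy SMN2 makes this uncertain. Among abundant genes replicate 1 was high in TAGLN2, an actin-binding protein (1065, 672 and 640 CPM), in the calcium-binding S100A11 (187, 116 and 123 CPM) and in TMSB4X. The ribosomal protein genes RPS3 (1324, 838 and 851 CPM) and RPL23A (770, 516 and 416 CPM) were also high there, and ribosomal protein symbols held 6.92%, 6.38% and 6.56% of counts. The actin list had 21 of its 34 members highest there and the S phase list 16 of 25, against 37% of all genes with a read. Other lists went the other way, such as glycolysis with 5 of 22 and hypoxia with 2 of 19 members highest in replicate 1. Replicate 3 was high in MTERF4, THTPA, GPATCH3, ZNF177, COX10-AS1 and TGM2, and low in GRAMD4 (8.70, 5.40 and 1.41 CPM), GTPBP2 and PFDN6. Replicate 2 was low in LOC101927178 (9.59, 1.35 and 6.67 CPM), DACT3, NDUFAF5, ZNF2, TMEM186 and MAP6D1. Low in replicate 1, beside interferon genes, were SELO, ZNF44 and NMRK1. These differences had no group behind them, and their part in the levels above was not tested.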

How the data were processed

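Total RNA of 9 U-373MG samples was measured, and the 3 untreated libraries were used. Per the labels' protocols, 500 ng of TRIzol-extracted RNA went into a Lexogen QuantSeq library for each sample, read as single ends of 75 bp. The submitters' processing notes name Bowtie2, bedtools and the build hg19. Not given in the sources used here are versions, annotation, strand setting and the treatment of multiply matching reads. The deposited files hold raw counts per gene symbol, made by the authors with no normalization. Of 25737 entries, those that shared a symbol (286 symbols, 1561 entries) were summed, which left 24462 symbols. CPM used the library total. RefSeq (GRCh38.p14) gave gene classes and overlaps for 23319 symbols (95.3%) and the promoters; GENCODE transcripts gave lengths.

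The spread was estimated with edgeR 4.0.16 in R 4.3.3 (TMM, filterByExpr with a minimum count of 10 and total of 15, intercept only) and tested on simulated data. Other tables were made with Python 3.11.15 and pandas 2.3.3. Size factors of DESeq2 1.42.0, other filters, lengths and left-out libraries were the alternatives. Named genes were the 20 highest symbols, up to 6 members per list with the highest mean, defining markers without a read, the 12 largest and 8 smallest ratios of SD to mean at 5 CPM or more, the 6 most uneven genes per library and direction at that level, and GFAP, VIM, CD44, MKI67, SOX2, OLIG2, CDKN2A, EGFR and KCNA3. Further list members, the locus neighbours and the interferon genes themselves were named after their values were seen. The description, its 33 gene lists and this rule were chosen with earlier results of these data known. Lists share members: VIM, for example, stands in both the progenitor and the mesenchymal list. Some genes that the rule names are not reported here. No group comparison and no p-value was made.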

Additional observations from a re-analysis of the deposited data

How the results depend on the processing

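The 20 highest symbols were the same under TMM, DESeq2's size factors, the largest entry of each symbol and with any 1 library left out, but 7 of them remained after division by transcript length. Symbols at 1 CPM in every library numbered 12370 under each scaling, 12556 to 12599 with 1 library left out, and 13042 by a mean of 1 CPM; 10195 symbols reached 5 CPM in every library. The share of counts in the 10 highest symbols was 6.77% to 6.80% with 1 library left out. Counting only members at 1 CPM in every library took the endothelial sum from 15.8 to 12.9 CPM, the epithelial sum from 53.7 to 47.7 CPM and the pluripotency sum from 7.82 to 6.27 CPM. The common biological coefficient of variation, 0.144, was 0.165 with no filter on low counts, 0.123 at 5 CPM in every library and 0.133 to 0.152 with 1 library left out, lowest without replicate 1. Another 253 values tied to the main description stayed within the spread of the libraries or within 1.5 times. For list sums with 1 library left out this outcome was fixed in advance. The mean of the libraries kept always lies within 1 SD of the mean of all, so these sums do not show stability. The interferon sum counted as within the spread at 1636 CPM without replicate 2, against 1840 CPM. No paired analysis was possible because the report has 1 group. At this depth 1 read is 0.0741 to 0.0813 CPM, so levels below about 1 CPM rest on few reads.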
